A study of Drosophila melanogaster with 9 samples.

Results

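The cytosolic ribosomal proteins of Drosophila melanogaster were followed in the indirect flight muscle, the large thoracic muscle that powers the wings, of males of 3 genotypes. Members are the genes whose platform symbol starts with RpL or RpS followed by a digit or P. They number 41 of the 11982 genes that a probe set of the array named alone, with 25 of the large subunit and 16 of the small subunit. A current RefSeq table holds 92 gene symbols of this form, and the other genes were not analysed here. Each gene is represented by 1 probe set, a group of short probes whose combined brightness reports a transcript. RpL3, RpS29, RpS30 and RpS7 had several probe sets, and the one with the highest mean over the 9 arrays was used.

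Canton-S is a wild-type laboratory strain. Act88FKM88 carries a mutant allele of Act88F, the gene of the flight muscle actin, known as a null allele, and Mhc7 carries an allele of the myosin heavy chain gene known to remove myosin heavy chain from the indirect flight muscle. All flies were adult males aged 1 to 2 days, kept at 25 °C, and the muscle was taken from thoraces dehydrated in cold ethanol. Each genotype had 3 arrays, which the labels call biological replicates, and each mutant is a single allele. The sources used here do not give how many flies were pooled for an array. In pooled tissue, fewer cells of a type and less RNA per cell cannot be told apart.

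A ribosome is built from a small subunit, which decodes the messenger RNA, and a large subunit, which joins amino acids into protein. Its proteins are needed in near equal numbers, and their genes are among the most strongly transcribed in growing cells. In flies, loss of 1 copy of many of these genes gives the Minute phenotype of slow development and short bristles. Some genes have a paralogue, and several of these second copies, such as RpL22-like, RpS5b, RpS19b and RpS10a, are known mainly from the fly germline. RpL24-like, RpL7-like and RpLP0-like resemble yeast proteins that help assemble the large subunit.

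The labels were checked first. The log2 level of Act88F was 14.10, 14.32 and 14.36 in Canton-S, 11.57, 11.79 and 11.03 in Act88FKM88, and 14.10, 14.25 and 14.14 in Mhc7. It fell in Act88FKM88 by 2.80 ± 0.17 on the log2 scale against Canton-S (SE, n = 3 arrays per genotype; limma adjusted p = 8.25e-05). Of 13 flight muscle markers 11 were measured, with a median log2 level of 12.0 in Canton-S and of 11.8 and 12.2 in Act88FKM88 and Mhc7. Mhc itself was not analysed here. Of the 11, 1, Mf, rose in Mhc7, from 10.42 to 11.64, and 0 rose there after repeated quantile normalization. TpnC4 was lower in Mhc7, at 12.40 beside 13.08 in Canton-S, with a limma adjusted p under 0.1 but less than 2-fold. None of 18 measured testis and germline markers had a genotype mean above 5. Of the markers of cuticle and epidermis (4 of 6 measured) 2, Cpr64Aa and Cpr76Bd, fell in both mutants. Without Canton-S 1 only 1 of the list fell in Act88FKM88. Cpr49Ac and resilin neither rose nor fell, at 3.14 and 3.37 in Canton-S, 3.03 and 3.14 in Act88FKM88, and 3.415 and 3.25 in Mhc7. The log2 of the summed level, with Cpr64Aa the highest marker, ranged from 12.08 to 12.33 in Canton-S. It ranged from 9.12 to 10.66 in Act88FKM88 and from 8.70 to 10.32 in Mhc7. Of 6 measured accessory gland markers 1, Sfp53D, fell in Mhc7, by 3.74 on the log2 scale (adjusted p = 0.00298), from 6.58 in Canton-S and beside 7.03 in Act88FKM88 to 2.84. The log2 of that list's summed level ranged from 6.26 to 7.74 in Canton-S, from 7.09 to 7.93 in Act88FKM88 and from 5.38 to 5.43 in Mhc7. Of 7 measured fat body markers 1, FASN1, rose in Act88FKM88, from 3.79 to 4.86 (adjusted p = 0.0801), but not without Canton-S 1, with sums from 7.37 to 9.57, 8.53 to 8.88 and 8.14 to 10.35 in the same order of genotypes. The part of these markers in the ribosomal protein results below was not tested. Array medians lay between 3.05 and 3.12, but the level below which 99% of probe sets lay was 11.08 in Canton-S 1, 11.61 and 11.65 in the other Canton-S arrays, and 11.64 to 11.89 in the mutants.

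In signal, the family split into a bright group and a dim one. For 30 members, 19 of the large and 11 of the small subunit, the probe set lay above the 95th percentile of all probe sets by its mean over the 9 arrays, at percentiles from 97.7 to 99.8. RpL34a had the lowest mean of these, 9.29, and RpL41 the highest, 13.0. These 30 are called abundant here. The limit fell just above RpL24-like, at percentile 94.4, and just below RpL34a, at 97.7. RpL24-like and RpL7-like, the relatives of yeast assembly factors, lay between the groups with means of 7.36 and 6.30. The other 9 members were near background, with means from 2.63 to 3.86 beside array medians of about 3: RpL10Aa, RpL22-like, RpL37-2, RpLP0-like, RpS10a, RpS19b, RpS28-like, RpS28a and RpS5b. Probe sets differ in how brightly they bind, so their levels rank signals and not amounts of RNA. The groups and their limits were set after the values had been seen. Of the 41 probe sets, 14 are of the type that Affymetrix names _s_at, whose probes match more than 1 transcript, and those readings can include near-identical copies.

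**Figure D1:**
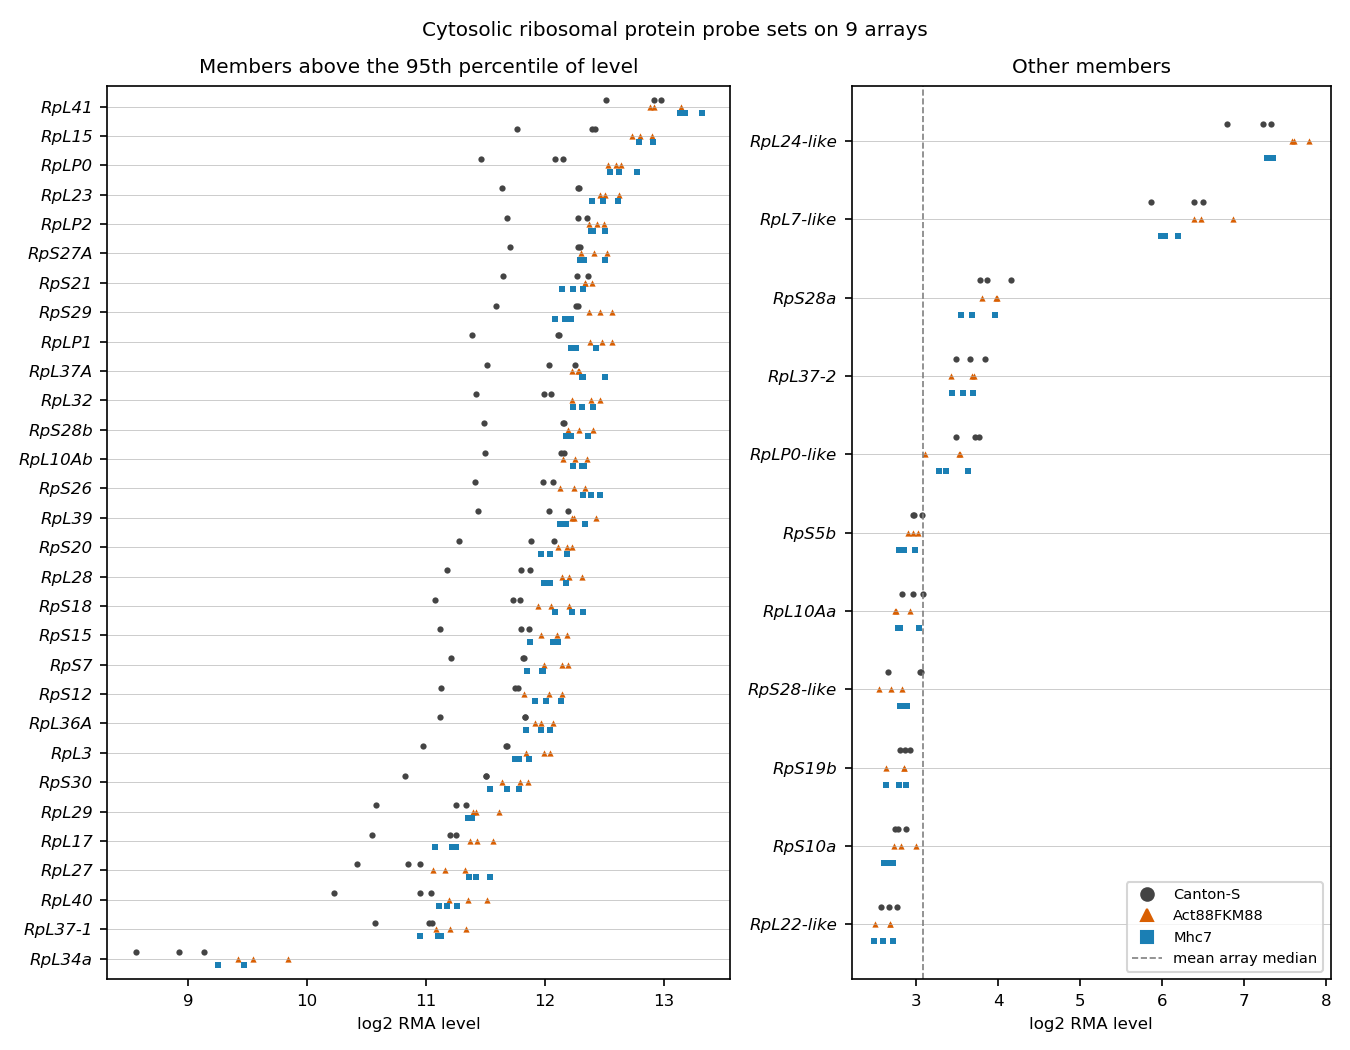
Deposited log2 level of each of the 41 members in each of the 9 arrays, with the 30 abundant members on the left, the other members on the right, and a dashed line at the mean array median. The 30 abundant members had means from 9.29 to 13.0, RpL24-like and RpL7-like lay at 7.36 and 6.30, and the other 9 had means from 2.63 to 3.86.

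The mean over the 30 abundant members was 11.17, 11.78 and 11.83 in Canton-S 1, 2 and 3, then 12.04, 12.15 and 11.95 in Act88FKM88 1, 2 and 3, and 11.92, 12.08 and 11.99 in Mhc7 1, 2 and 3. Every mutant array lay above every Canton-S array. Canton-S 1 stood apart from its own group. It was the lowest of the 9 arrays for 32 of 32 abundant and intermediate members, and for the abundant ones it lay below the mean of Canton-S 2 and 3 by 0.44 to 0.77. For the near-background members the same offset ranged from -0.394 to 0.169, with a median of 0. The highest array was Act88FKM88 2 for 24 of these 32 members, Mhc7 2 for 7 and Mhc7 1 for 1. The 99th percentile of all probe sets was lowest in Canton-S 1 as well, and its part in the low family mean was not tested.

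**Figure D2:**
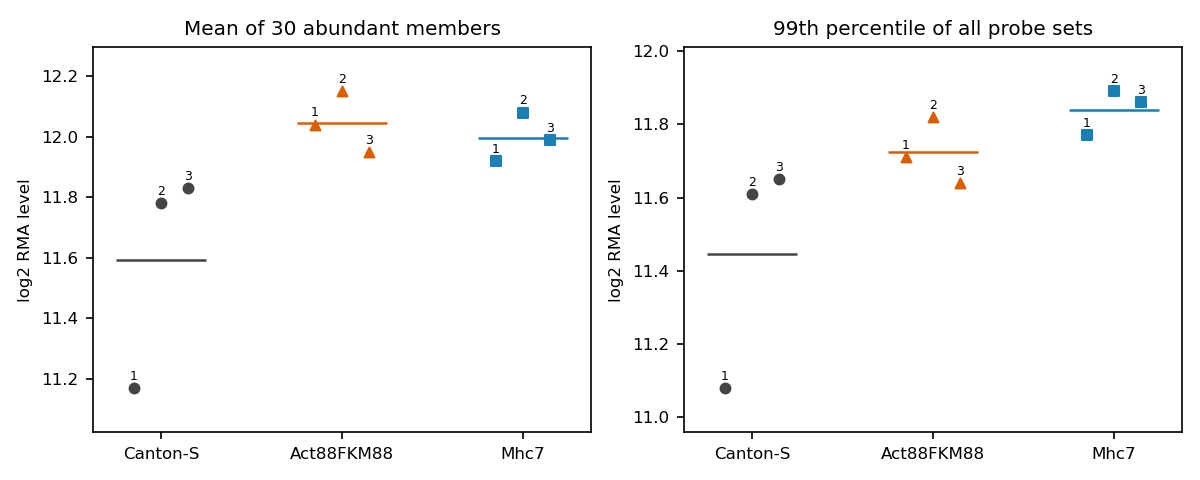
Mean log2 level of the 30 abundant members and 99th percentile of all probe sets in each of the 9 arrays, with a bar at each genotype mean. Canton-S 1 is lowest in both, at 11.17 and 11.08, and the mutant arrays lie between 11.92 and 12.15 for the abundant members.

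No member passed the study's threshold of a false discovery rate of 10% with at least a 2-fold difference (limma, Benjamini-Hochberg adjusted over 18769 probe sets). Against Canton-S, 0 of 41 members passed in either direction in Act88FKM88, where 1.48% of all probe sets rose and 0.33% fell, and 0 of 41 in Mhc7, where 2.4% rose and 0.389% fell. Between the mutants it was again 0 of 41, beside 0.757% higher and 1.03% lower in Act88FKM88. At an unadjusted p under 0.05, 23 members were higher in Act88FKM88 (8.96% of all probe sets), 15 in Mhc7 (10.3%) and 2 in Act88FKM88 against Mhc7 (5.67%), and 0 were lower in each (5.67%, 6.52% and 7.57% of all probe sets). SAM, the study's test, also passed 0 members in all 3 comparisons. The 95% interval of the difference stayed under 2-fold higher for 37 members in Act88FKM88, for 38 in Mhc7 and for 41 between the mutants.

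The differences below 2-fold leaned one way. The log2 difference from Canton-S was above 0 for 33 of 41 members in Act88FKM88 (42.7% of all probe sets) and for 31 in Mhc7 (46% of all probe sets). Its median over the members was 0.417 in Act88FKM88 and 0.327 in Mhc7, beside -0.026 and -0.0144 over all probe sets. Without Canton-S 1 the medians were 0.187 and 0.116. They also depended on how the arrays were scaled. After quantile normalization was repeated on the deposited values they were 0.0768 and -0.0519, and after each array's intensity trend was removed by loess they were 0.0388 and -0.0987, so the direction in Mhc7 turned.

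Taken gene by gene, 27 of 41 members had all 3 Act88FKM88 arrays above all 3 Canton-S arrays and 0 had them below, where 9.75% of all probe sets were higher and 10% lower in that way. In Mhc7 these were 24 higher and 1 lower, beside 11.8% and 10.3% of all probe sets, and the 1 lower was the near-background RpS10a. Between the mutants 8 members were higher in Act88FKM88 and 2 lower, beside 8.07% and 10.1%. Against Canton-S, rescaling made the higher counts smaller and the lower ones larger. After repeated quantile normalization 15 were higher and 2 lower in Act88FKM88 (9.45% and 9.75% of all probe sets), and 8 were higher and 8 lower in Mhc7 (10.1% and 9.81%). After loess these were 13 and 4 in Act88FKM88 (10.2% and 8.86%) and 4 and 14 in Mhc7 (10.6% and 9.6%). Between the mutants the higher count grew, to 19 with 4 lower after quantile normalization (9.24% and 10.4%) and to 26 with 1 lower after loess (9.79% each). Both mutants were compared with the same Canton-S arrays, so these counts are not independent.

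**Figure D3:**
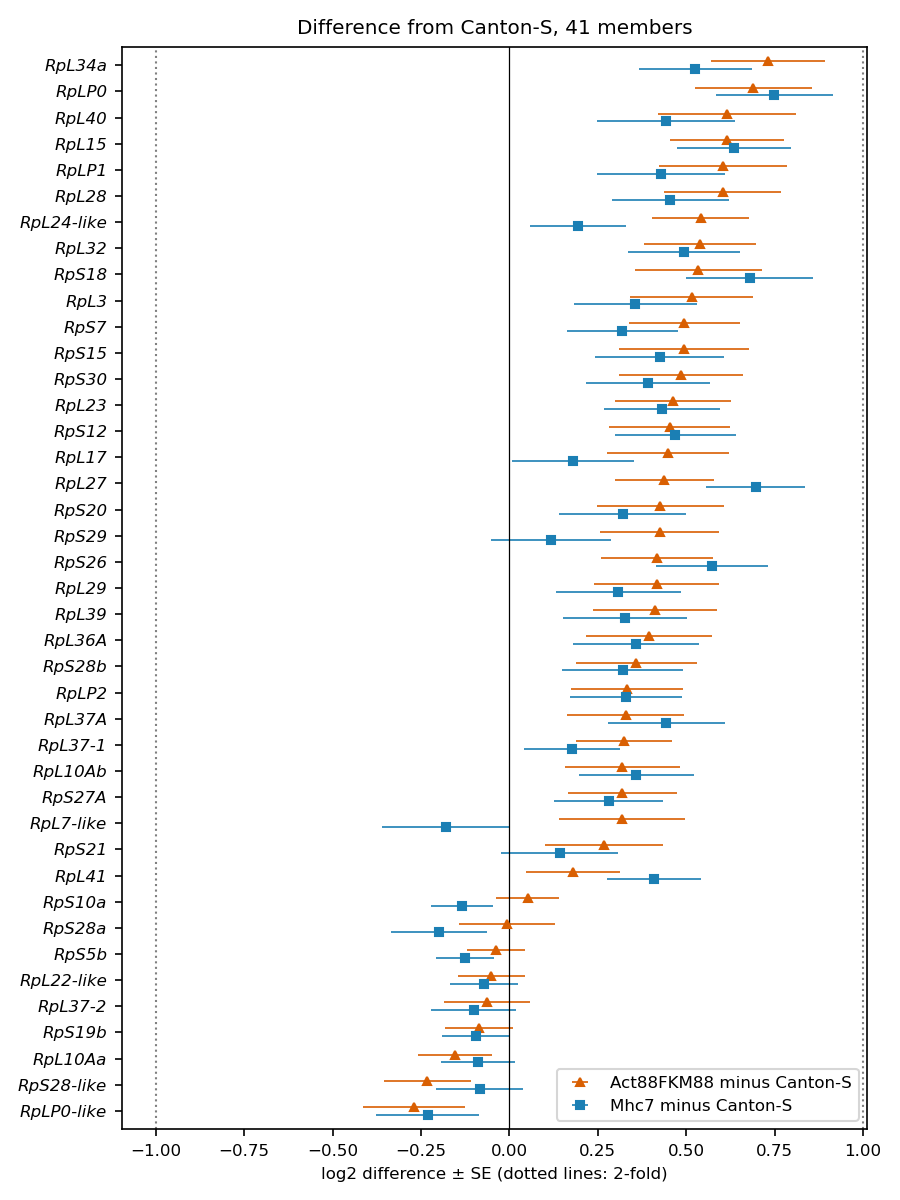
Log2 difference from Canton-S of each of the 41 members in Act88FKM88 and in Mhc7, with its standard error (n = 3 arrays per genotype) and dotted lines at 2-fold. All abundant members lie between 0.118 and 0.749, inside the dotted lines, and the near-background members lie between -0.27 and 0.052.

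With no fold minimum, a few members of each comparison had an adjusted p under 0.1. In Act88FKM88 they were 4 of 41, RpL34a, RpLP0, RpL24-like and RpL15, all higher, where 3.94% of all probe sets were. In Mhc7 they were 5 of 41, RpL27, RpLP0, RpL15, RpS18 and RpS26, all higher, where 5.58% were. Between the mutants 0 of 41 met it, beside 1.66% of all probe sets higher in Act88FKM88. A test for any difference among the genotypes gave 4 of 41 members (RpL27, RpLP0, RpL34a and RpL15), where 8.81% of all probe sets met it. As shares of the 41 these are 9.76%, 12.2% and 9.76%, above the background by few genes. The counts moved with single arrays. In Act88FKM88, 0 members met it without Act88FKM88 1 or without Act88FKM88 2, 1 without Act88FKM88 3 or Mhc7 3, 2 without Canton-S 1, Mhc7 1 or Mhc7 2, and 7 without Canton-S 3. In Mhc7 it was 1 without Mhc7 2 or Mhc7 3, 2 without Act88FKM88 1, 3 without Mhc7 1, and 8 without Canton-S 3. Without Canton-S 1, 1.83% of all probe sets were higher at an adjusted p under 0.1 in Act88FKM88. In Mhc7 3.53% were, beside 4 of 41 members. For the other fits without 1 array the share was not counted. After loess, 5 members had an adjusted p under 0.1 in Mhc7 and all 5 were lower, and the share was not counted. After repeated quantile normalization 3 were higher in Mhc7 and 2 lower, beside 3.16% and 2.37% of all probe sets.

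RpLP0 is the base of the large subunit's acidic stalk, the flexible arm that recruits the translation factors driven by GTP. Its log2 level was 11.47, 12.08 and 12.15 in Canton-S, 12.60, 12.64 and 12.53 in Act88FKM88, and 12.55, 12.78 and 12.62 in Mhc7. All 6 mutant arrays lay above all 3 Canton-S arrays. The difference was 0.69 ± 0.17 in Act88FKM88 (adjusted p = 0.0668), or 1.61-fold, and 0.75 ± 0.17 in Mhc7 (adjusted p = 0.0342), or 1.68-fold. Without Canton-S 1 these were 0.47 (adjusted p = 0.0697) and 0.53 (adjusted p = 0.0286). The adjusted p stayed under 0.1 in 5 of 9 fits without 1 array in Act88FKM88 (up to 0.176, lost without any of its own arrays and without Mhc7 3) and in 7 of 9 in Mhc7 (up to 0.125, lost without Mhc7 2 and without Mhc7 3). After repeated quantile normalization the differences were 0.37 (adjusted p = 0.0286) and 0.38 (adjusted p = 0.0237). After loess they were 0.30 (adjusted p = 0.0833) and 0.24 (adjusted p = 0.146). RpLP1 and RpLP2, the acidic proteins that RpLP0 carries, had smaller values. RpLP1 differed by 0.60 ± 0.18 in Act88FKM88 and 0.43 ± 0.18 in Mhc7, and RpLP2 by 0.33 ± 0.16 in both, none at an adjusted p under 0.1.

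RpL27 is a protein of the large subunit. Its log2 level was 10.43, 10.85 and 10.95 in Canton-S, 11.16, 11.33 and 11.06 in Act88FKM88, and 11.54, 11.42 and 11.36 in Mhc7. The Mhc7 arrays lay above those of both other genotypes without overlap. The difference from Canton-S in Mhc7 was 0.70 ± 0.14 (adjusted p = 0.0218), and RpL27 was the member whose adjusted p stayed under 0.1 in each of the 9 fits without 1 array, between 0.0178 and 0.0699. Rescaled, the Mhc7 difference was 0.15 after repeated quantile normalization (adjusted p = 0.428) and 0.19 after loess (adjusted p = 0.303). In Act88FKM88 it was 0.44 ± 0.14 (adjusted p = 0.166), and the direct comparison of Act88FKM88 with Mhc7 gave -0.26 ± 0.14 (adjusted p = 0.498).

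RpL34a had the largest difference in Act88FKM88. It lay at 8.56, 8.92 and 9.14 in Canton-S, 9.55, 9.84 and 9.42 in Act88FKM88, and 9.26, 9.47 and 9.47 in Mhc7. The mutant arrays did not overlap with Canton-S, and overlapped with each other. The difference in Act88FKM88 was 0.73 ± 0.16 (adjusted p = 0.046), or 1.66-fold, and 0.57 without Canton-S 1 (adjusted p = 0.133). The adjusted p was under 0.1 in 5 of 9 fits without 1 array. After repeated quantile normalization the value was 0.22 (adjusted p = 0.268), and after loess 0.37 (adjusted p = 0.0497). In Mhc7 the difference was 0.53 ± 0.16 (adjusted p = 0.119), -0.22 after repeated quantile normalization and 0.026 after loess. Its partner RpL34b was not analysed here.

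RpL15, of the large subunit, lay at 11.77, 12.42 and 12.39 in Canton-S, 12.80, 12.90 and 12.73 in Act88FKM88, and 12.79, 12.91 and 12.79 in Mhc7. The mutants were nearly equal and both lay above Canton-S without overlap, by 0.615 ± 0.16 in Act88FKM88 (adjusted p = 0.0865) and 0.64 ± 0.16 in Mhc7 (adjusted p = 0.0607). Leaving out 1 array kept the adjusted p under 0.1 in 3 of 9 fits and in 5 of 9. After repeated quantile normalization the values were 0.308 and 0.335 (adjusted p = 0.0513 and 0.0324). After loess they were 0.23 and 0.13 (adjusted p = 0.136 and 0.401). The other named large-subunit proteins of known place were less apart from Canton-S. RpL3, near the catalytic centre, differed by 0.52 ± 0.17 in Act88FKM88 and 0.36 ± 0.17 in Mhc7. RpL10Ab, of the stalk that guides the spent transfer RNA out, differed by 0.32 ± 0.16 and 0.36 ± 0.16. RpL32, a transcript often used as the reference in fly quantitative PCR, differed by 0.54 ± 0.16 and 0.49 ± 0.16, with all mutant arrays above Canton-S (adjusted p = 0.129 and 0.139). RpL23, at the face that meets the small subunit, differed by 0.46 ± 0.16 and 0.43 ± 0.16.

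RpL17 and RpL39 line the tunnel through which the new protein leaves. RpL17 lay at 10.55, 11.21 and 11.26 in Canton-S, 11.43, 11.56 and 11.37 in Act88FKM88, and 11.08, 11.22 and 11.26 in Mhc7. Its Act88FKM88 arrays lay above all others, and its Mhc7 arrays overlapped with Canton-S. RpL39 differed by 0.41 ± 0.18 in Act88FKM88 and 0.33 ± 0.18 in Mhc7. RpL41, the shortest protein of the ribosome and one that bridges the subunits, had the smallest difference of the abundant members in Act88FKM88. It lay at 12.51, 12.92 and 12.98 in Canton-S, 12.92, 13.14 and 12.89 in Act88FKM88, and 13.18, 13.32 and 13.13 in Mhc7, with overlap in the first comparison and none in the second. The differences were 0.18 ± 0.13 and 0.41 ± 0.13 (adjusted p = 0.605 and 0.146).

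RpL40, RpS27A and RpS30 are ribosomal proteins that are made as fusions with ubiquitin or a ubiquitin-like protein. Their means lay above Canton-S in both mutants, and they were not tested against each other. RpL40 differed by 0.62 ± 0.20 in Act88FKM88 and 0.44 ± 0.20 in Mhc7. RpS27A differed by 0.32 ± 0.15 and 0.28 ± 0.15, and RpS30 by 0.49 ± 0.17 and 0.39 ± 0.17. All 3 had adjusted p above 0.1 in both mutants. The remaining abundant large-subunit members, RpL28, RpL29, RpL36A, RpL37-1 and RpL37A, differed by 0.33 to 0.60 in Act88FKM88 and by 0.18 to 0.46 in Mhc7.

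In the small subunit, RpS18 and RpS26 had the lowest adjusted p in Mhc7. RpS18, in the head of the subunit at the contact with the large one, lay at 11.07, 11.79 and 11.73 in Canton-S, 12.05, 12.20 and 11.94 in Act88FKM88, and 12.08, 12.32 and 12.23 in Mhc7. Neither mutant overlapped with Canton-S, and the differences were 0.53 ± 0.18 in Act88FKM88 (adjusted p = 0.19) and 0.68 ± 0.18 in Mhc7 (adjusted p = 0.0722). RpS26, at the channel through which the messenger RNA leaves, lay at 11.41, 11.98 and 12.07, then 12.25, 12.34 and 12.13, then 12.32, 12.47 and 12.39 in the same order of genotypes. It differed by 0.42 ± 0.16 and 0.57 ± 0.16 (adjusted p = 0.258 and 0.0854). Neither mutant overlapped with Canton-S for it. In Mhc7 the adjusted p of RpS18 was under 0.1 in 6 of 9 fits without 1 array and that of RpS26 in 2 of 9. After repeated quantile normalization the Mhc7 values were 0.331 and 0.225 (adjusted p = 0.0493 and 0.118). After loess they were 0.17 and 0.065 (adjusted p = 0.312 and 0.726). RpS29, of the head, had the smallest difference of the abundant members in Mhc7. It lay at 11.59, 12.28 and 12.26 in Canton-S, 12.37, 12.56 and 12.47 in Act88FKM88, and 12.09, 12.17 and 12.22 in Mhc7. On this probe set only the Act88FKM88 arrays cleared Canton-S, and the differences were 0.42 ± 0.17 and 0.12 ± 0.17. On a second bright probe set of RpS29 the Act88FKM88 arrays overlapped with Canton-S, with Act88FKM88 3 at 12.001 and Canton-S 3 at 12.026. RpS12, which flies need for mutant ribosomal protein cells to be outcompeted by normal neighbours, differed by 0.45 ± 0.17 and 0.47 ± 0.17. RpS7, RpS15, RpS20, RpS21 and RpS28b differed by 0.27 to 0.49 in Act88FKM88 and by 0.14 to 0.42 in Mhc7, all at adjusted p above 0.1.

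The subunits lay close together. The median difference of the abundant members was 0.448 for the large and 0.427 for the small subunit in Act88FKM88, and 0.429 and 0.32 in Mhc7. Within an array, the mean of the abundant large-subunit members minus that of the small-subunit members was -0.24, -0.28 and -0.25 in Canton-S, -0.22, -0.20 and -0.21 in Act88FKM88, and -0.16, -0.20 and -0.22 in Mhc7. The sign of that value reflects the probe sets and is not a ratio of subunits. Over all members, dim ones included, the same subtraction was higher than in Canton-S by 0.0988 in Act88FKM88 and by 0.0927 in Mhc7. Of the large subunit 19 of 25 members were abundant and of the small subunit 11 of 16. This value therefore also carries the unequal share of dimmer members. It moved to 0.0118 and -0.0136 after repeated quantile normalization.

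Since Canton-S 1 was low for every abundant member, each was also set against the mean of the 30 within its array, a comparison added after the values had been seen. On that scale members differ by how they moved relative to the family. RpLP0 lay at 0.30, 0.30 and 0.32 above the family mean in Canton-S, at 0.56, 0.49 and 0.58 in Act88FKM88, and at 0.62, 0.70 and 0.63 in Mhc7. Its relative change was 0.236 in Act88FKM88 and 0.344 in Mhc7 (exact permutation test of 3 against 3 arrays, two-sided p = 0.1 each, the smallest that test can give). The Canton-S arrays, Canton-S 1 included, lay close together here, and without Canton-S 1 the values were 0.232 and 0.34. They were 0.26 and 0.38 after repeated quantile normalization, so the shift of RpLP0 within the family did not turn there. After loess they were 0.231 and 0.343. Loess takes nearly the same amount from probe sets of like brightness, and subtracting the family mean cancels most of that. The loess values are therefore no separate check on this scale.

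**Figure D4:**
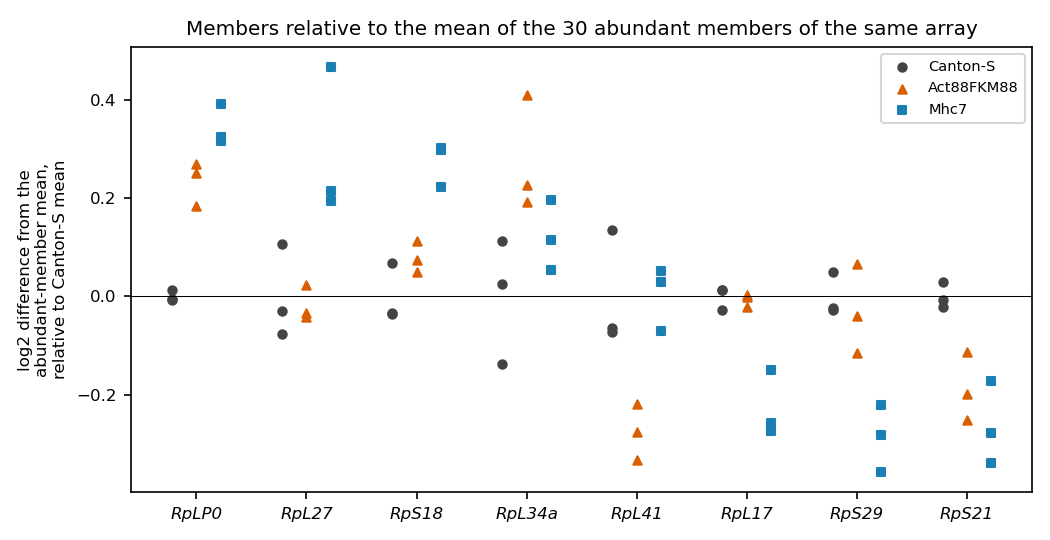
Log2 level of 8 members relative to the mean of the 30 abundant members of the same array, with the Canton-S mean of each member set to 0. RpLP0 is above 0 in all mutant arrays, with changes of 0.236 in Act88FKM88 and 0.344 in Mhc7, and RpS21 is below 0 in all of them, by -0.188 and -0.263.

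In Mhc7, RpL27, RpS18, RpL15 and RpS26 were also higher relative to the family, by 0.292, 0.274, 0.232 and 0.169. Lower relative to the family were RpS29 by -0.287, RpS21 by -0.263, RpL37-1 by -0.228 and RpL17 by -0.226. All 8 kept their sign without Canton-S 1 and after repeated quantile normalization. They also kept it after loess, whose effect this scale largely cancels. The relative value of RpL27 went to 0.149 under quantile normalization, and that of RpL37-1 went to -0.425. For RpS29 the probe sets disagreed. Its second bright probe set, with a mean of 11.98, gave a difference from Canton-S in Mhc7 of 0.26 ± 0.17, where the chosen one gave 0.12 ± 0.17.

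In Act88FKM88, RpL34a was higher relative to the family by 0.276 and RpLP0 by 0.236, followed by RpL40 (0.161), RpL15 (0.16) and RpL28 (0.149). RpL41 was lower by -0.276 and RpS21 by -0.188. RpL34a dropped to 0.107 and RpL40 to 0.042 after repeated quantile normalization. Set directly against Mhc7, Act88FKM88 had RpL27 lower by -0.309 and RpL41 by -0.279, and RpS29 higher by 0.257 and RpL17 by 0.219. For RpS29 the probe sets disagreed here too. Not set against the family, the chosen one differed between the mutants by 0.307 ± 0.169 and the second bright one by 0.046 ± 0.167. Exact permutation p was 0.1 for all members named in the last 3 comparisons, the smallest it can be, so none can fall below 0.05 in this design. These members were picked as the extremes of 30.

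Of the yeast assembly factor relatives, RpL24-like lay at 6.79, 7.33 and 7.24 in Canton-S, 7.58, 7.79 and 7.61 in Act88FKM88, and 7.28, 7.36 and 7.30 in Mhc7. The Act88FKM88 arrays cleared both other genotypes, with a difference from Canton-S of 0.54 ± 0.14 (adjusted p = 0.0782) and from Mhc7 of 0.35 ± 0.14 (adjusted p = 0.31). The first was 0.375 without Canton-S 1 (adjusted p = 0.134) and 0.172 after repeated quantile normalization (adjusted p = 0.65), and its adjusted p was under 0.1 in 2 of 9 fits without 1 array. RpL7-like lay at 5.87, 6.50 and 6.39 in Canton-S, 6.38, 6.86 and 6.47 in Act88FKM88, and 6.03, 6.20 and 5.99 in Mhc7. It had the largest difference between the mutants of all 41 members, 0.50 ± 0.18 (adjusted p = 0.251), and the lowest Act88FKM88 array was above the highest Mhc7 array. Its difference from Canton-S was 0.32 ± 0.18 in Act88FKM88 and -0.18 ± 0.18 in Mhc7.

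The 9 near-background members had log2 differences between -0.27 and 0.05 in Act88FKM88 and between -0.23 and -0.07 in Mhc7, all at adjusted p of 0.447 or more. RpLP0-like had the lowest, -0.27 ± 0.14 in Act88FKM88 and -0.23 ± 0.14 in Mhc7, from 3.77, 3.48 and 3.71 in Canton-S, 3.10, 3.52 and 3.54 in Act88FKM88, and 3.37, 3.28 and 3.63 in Mhc7. The genotypes overlapped. RpS10a lay at 2.88, 2.74 and 2.78 in Canton-S, 3.00, 2.73 and 2.81 in Act88FKM88, and 2.67, 2.71 and 2.61 in Mhc7. RpL22-like and RpS19b, known from the fly germline, stayed between 2.48 and 2.92 in all 9 arrays, and RpS5b between 2.79 and 3.07. A signal this close to the array median can hide a small change, so these values say only that no large rise was seen in either mutant.

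For 5 pairs both paralogues were measured, and each time 1 of them was near background and the other abundant. The near-background member RpS28a lay at 3.86, 3.78 and 4.15 in Canton-S, 3.97, 3.81 and 3.99 in Act88FKM88, and 3.97, 3.54 and 3.68 in Mhc7, while its partner RpS28b lay at 11.49, 12.16 and 12.16, then 12.28, 12.40 and 12.19, then 12.18, 12.36 and 12.22. RpS28-like lay between 2.54 and 3.06 in the 9 arrays. RpL10Aa lay at 2.83, 2.97 and 3.08 in Canton-S and between 2.74 and 3.03 in the mutants, and RpL10Ab at 11.50, 12.14 and 12.16 in Canton-S and between 12.15 and 12.35 in the mutants. RpL37-2 lay between 3.42 and 3.84 in all arrays, and RpL37-1 at 10.57, 11.05 and 11.03 in Canton-S and between 10.95 and 11.34 in the mutants.

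The level of the near-background paralogue minus that of its abundant partner was compared with Canton-S in 10 tests (5 pairs in 2 mutants). RpS28b was the partner of both RpS28a and RpS28-like. No test could reach an adjusted p under 0.1, since 3 against 3 arrays give a two-sided exact permutation p of at least 0.1. As the first of each pair lay near background, this subtraction mainly restates the difference of the partner. No change of the dim paralogue can be read from it. For RpLP0-like against RpLP0 it moved by -0.96 in Act88FKM88 and -0.98 in Mhc7, for RpL10Aa against RpL10Ab by -0.473 and -0.448, and for RpS28-like against RpS28b by -0.59 and -0.404 (exact permutation test, two-sided p = 0.1 each, adjusted p = 0.167). For RpS28a against RpS28b it moved by -0.366 and -0.519 and for RpL37-2 against RpL37-1 by -0.389 and -0.277, with exact p from 0.2 to 0.3. Under rescaling the direction was kept for RpLP0-like in both mutants and for RpL10Aa and RpS28-like in Act88FKM88. It was not kept in the other comparisons. After repeated quantile normalization RpL37-2 against RpL37-1 gave 0.106 and 0.342. After loess it gave 0.00926 and 0.258, RpS28a gave 0.0204 and 0.000219, and in Mhc7 RpL10Aa gave 0.096 and RpS28-like 0.134. Each value shrank without Canton-S 1 (for RpLP0-like against RpLP0 to -0.687 and -0.707). Of the paralogues of RpS5b, RpS19b, RpS10a, RpL34a, RpL22-like, RpL24-like and RpL7-like none was analysed here.

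Among genes that work with the ribosome, Sec61gamma, a subunit of the channel through which ribosomes feed proteins into the endoplasmic reticulum, rose in both mutants. From a mean log2 level of 5.77 in Canton-S it reached 8.24 in Act88FKM88 and 6.99 in Mhc7. The rise was 2.47 ± 0.25 in Act88FKM88 (adjusted p = 0.00149) and 1.21 ± 0.25 in Mhc7 (adjusted p = 0.023), and Act88FKM88 exceeded Mhc7 by 1.25 ± 0.25 (adjusted p = 0.0349). That last call was lost without Act88FKM88 1 and without Mhc7 3 (adjusted p of at most 0.142), and the rises against Canton-S held in each of the 9 fits without 1 array. After repeated quantile normalization the Mhc7 value was 0.834 and no longer 2-fold. Sec61gamma was the 1 of 15 measured ribosome-associated genes, a list that also holds RpL24-like, to rise in each comparison. Of all probe sets, 1.48% rose in Act88FKM88, 2.4% in Mhc7, and 0.757% were higher in Act88FKM88 than in Mhc7. On the deposited values 0 genes of the list fell. Srp68 differed in Mhc7 by -0.86 ± 0.17 (adjusted p = 0.0203). It passed as lower after repeated quantile normalization, at -1.056 (adjusted p = 0.00213), and after loess. The median difference of that list was 0.34 in Act88FKM88 and 0.365 in Mhc7. Rack1, a scaffold protein on the small subunit, lay 0.48 ± 0.175 and 0.37 ± 0.175 above Canton-S (adjusted p = 0.236 and 0.333).

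Of 9 measured elongation and termination factors, 0 rose or fell in Act88FKM88 and 2 rose in Mhc7, with 0 falling. Of all probe sets, 1.48% rose and 0.33% fell in Act88FKM88, and 2.4% and 0.389% in Mhc7. The release factor eRF1 rose by 1.08 ± 0.11 in Mhc7 (adjusted p = 0.0012), from 8.23 to 9.31, and eEF5, which helps the ribosome through difficult stretches of protein, rose by 1.12 ± 0.215 (adjusted p = 0.0182), from 10.59 to 11.72. Neither was 2-fold after repeated quantile normalization (0.379 and 0.582), nor was eEF5 without Canton-S 1 (0.857). None of 36 measured ribosome biogenesis factors, which process ribosomal RNA and build the subunits, and none of 18 measured growth and stress regulators rose or fell in any comparison. Their medians were -0.0361 and 0.142 in Act88FKM88 and 0.00759 and 0.161 in Mhc7.

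The mitochondrial ribosomal proteins, which form the separate ribosome inside mitochondria, are also encoded by nuclear genes. Of 69 measured, 50 rose in Mhc7 and 0 fell, beside 2.4% and 0.389% of all probe sets. In Act88FKM88 7 rose and 0 fell, beside 1.48% and 0.33%. The median log2 difference was 1.42 in Mhc7 and 0.431 in Act88FKM88. Without Canton-S 1, 39 rose in Mhc7 and 2 in Act88FKM88. After repeated quantile normalization 11 rose in Mhc7 (median 0.718), and in Act88FKM88 0 rose and 3 fell. After loess 24 rose in Mhc7 (median 0.917), and in Act88FKM88 1 rose and 3 fell. The cytosolic family had 0 of 41 in each. The difference between the families was not tested.

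**Figure D5:**
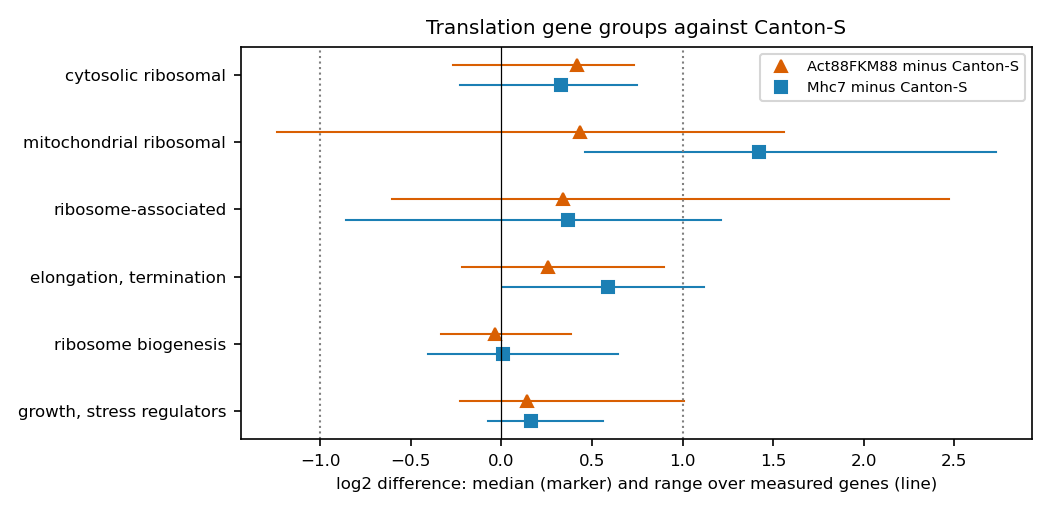
Median and range of the log2 difference from Canton-S for 6 groups of translation genes in Act88FKM88 and in Mhc7, with all 41 cytosolic ribosomal proteins at the top. The median of the mitochondrial ribosomal proteins in Mhc7, 1.42, lies above that of every other group shown.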

How the data were processed

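RNA of indirect flight muscle was measured on 9 Affymetrix arrays, 3 per genotype. The authors deposited log2 values of RMA (background correction, normalization and summary over probes), 1 for each probe set of each array, per the submitters' processing notes and the series' design text. Whether all 9 arrays were normalized together, and the RMA version, are not given in the sources used here. The upper percentiles of the arrays differ. Precision is set by the number of arrays.

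After 183 control probe sets were left out, 18769 were fitted in limma 3.58.1 (R 4.3.3) by genotype means over all 9 arrays, moderated variance, Benjamini-Hochberg adjustment and no filter on level. A pass was adjusted p under 0.1 and at least 2-fold, the study's limits. Rose and fell are used only of what passed. All p-values are two-sided. Probe sets naming a member with another gene (3) were left out. Genes were named from the platform annotation and a RefSeq table, which gave names only. Values in every array are given for the members with the smallest adjusted p and the extreme differences in each comparison and for paralogue pairs, and up to 2 genes per other list and direction are named. The members and lists were chosen with earlier results of these data known. Genes named outside this rule (RpL17, RpS21, RpS29 and others of the within-family comparison) were chosen after their values were seen.

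Replicate numbers were not used to pair the arrays in the main fit. Same-numbered arrays correlated at -0.316 to 0.426 in their deviations from genotype means, highest for Act88FKM88 2 with Mhc7 2. Arrays of different number were not set beside them, so this range cannot show whether the numbers pair arrays. The alternatives were repeated quantile normalization, median centring, loess, another variance prior, array weights, a replicate block, fits of 6 arrays, other thresholds, SAM rewritten from its description, a filter on dim probe sets, the mean over probe sets and each array left out. The test was tried on simulated data.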

Additional observations from a re-analysis of the deposited data

How the results depend on the processing

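With the 2-fold limit no member passed in any comparison under any of the normalizations, variance models, filters, 6-array fits, SAM or fits without 1 array. With 1.5-fold in its place 3 members passed in Act88FKM88 and 4 in Mhc7, all higher, beside 3.26% and 4.67% of all probe sets. With no fold minimum these were 4 and 5, all higher, beside 3.94% and 5.58%. With no fold minimum, loess gave 2 in Act88FKM88 and SAM gave 0, where SAM called 403 probe sets in either direction. In Mhc7 loess gave 5, all lower, and SAM gave 6, all higher, where SAM called 1554 probe sets in either direction. Between the mutants, where the limma count was 0, repeated quantile normalization gave 5, loess 10 and SAM 1, all higher in Act88FKM88. After quantile normalization 2.2% of all probe sets were higher, and SAM called 941 probe sets in either direction. The share over all probe sets after loess was not counted. Leaving out 1 array gave 0 to 7 in Act88FKM88, 1 to 8 in Mhc7 and 0 to 1 between the mutants. For any genotype difference the count of 4 became 8 after quantile normalization, 9 after loess, 2 at an adjusted p under 0.05, and 1 to 7 without 1 array. Shares over all probe sets were not counted for these settings of that test or for the replicate block. The family median moved from 0.417 to 0.0768 (quantile) and 0.0388 (loess) in Act88FKM88, from 0.327 to -0.0519 and -0.0987 in Mhc7, and from 0.0455 to 0.161 (loess) between the mutants. The subunit difference moved to 0.0118 and 0.0448 in Act88FKM88 and to -0.0136 and 0.0201 in Mhc7. After loess, the paralogue changes in Act88FKM88 were 0.0204 for RpS28a, -0.0424 for RpL10Aa, 0.00926 for RpL37-2, -0.541 for RpLP0-like and -0.163 for RpS28-like, and after quantile normalization -0.122 for RpL10Aa, 0.106 for RpL37-2 and -0.255 for RpS28-like. In Mhc7 they were 0.000219, 0.096, 0.258, -0.434 and 0.134 after loess in the same order, and -0.154, -0.0519, 0.342, -0.589 and -0.00129 after quantile normalization. The cause of these shifts was not tested. The replicate block gave 5 members in Act88FKM88 and 6 in Mhc7 with no fold minimum and 0 between the mutants, and with 2-fold it changed no call. The filter on dim probe sets kept 35 of the 41 members. Near background, signal limits what can be seen, and 3 arrays per genotype limit the rest.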

Other observations

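RpS7 had a second, dim probe set (mean log2 level 3.48), at 3.77, 3.56 and 3.56 in Canton-S, 3.49, 3.50 and 3.57 in Act88FKM88, and 3.38, 3.31 and 3.17 in Mhc7. Its difference from Canton-S in Mhc7 was -0.35 ± 0.09 (limma adjusted p = 0.0706), where the bright probe set of the same gene gave 0.32 ± 0.16. Second probe sets of RpL3 lay at means of 2.85 and 2.84, the last one of RpS29 at 2.60 and the second one of RpS30 at 4.28, and none of these had an adjusted p under 0.1.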
